A study of Mus musculus with 24 samples.

Results

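Activity scores from 2 arrays of mouse skeletal stem cells were compared, from microfractured joints given BMP2 and from microfractured joints given VEGFR1. They are 2 of the 24 arrays of the series, chosen by their treatment labels, and another array, from microfractured joints given PBS, is shown beside them. The series profiled the distal femur of C57BL/6J mice, in sorted stem cells and in whole bone, in newborns and adults and with or without microfracture, an operation that perforates the bone beneath a joint surface letting marrow cells reach the damaged surface. All 3 arrays came from adults of 9 to 25 weeks with microfractured joints, and they differ in the labels only in what was given (PBS, BMP2 or VEGFr1). The stem cells were sorted as CD45−TER119−TIE2−ITGAV+THY1−6C3−CD105−, with 500 to 1000 cells collected straight into lysis reagent and their RNA amplified in repeated rounds. The sources used here give no dose, no time of sampling, no number of animals behind an array and no form of VEGFR1.

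Each treatment had 1 array, so no test was possible and every value below is a single measurement. The deposited value was a gene expression activity score for each probe set, a group of short probes for 1 transcript, bounded at -100 and 100. The sources used here give neither its formula nor the meaning of a score of 0, so differences are given in score points (BMP2 minus VEGFR1) and never as folds. Each gene was read from the probe set that had the top mean over all 14 scored arrays, and a difference of at least 50 points is called large. As checks, the other probe sets of the same gene were read on the same arrays, the spread between replicate bulk arrays was taken on the same scale (pooled SD, n = 11 arrays in 3 groups), and signal was looked up in 3 other microfractured stem cell arrays that had been deposited as MAS5 intensity. Genes singled out for agreement among their probe sets or for strong signal were chosen after their values were seen: Fmod, Matn3, Snorc, Col9a1, Col9a3, Col11a1, Pthlh, Bmp5, Bmp8a, Twsg1, Angpt2, Tgfbr3, Tgfb1, Tgfb2, Tgfb3, Hhip, Frzb, Sfrp2, Dkk3, Igfbp5, Htra1, Adamts4, Adamts5, Mmp13, Sdha, Sdhb, Cxcl1, Vcam1, Lepr, Atf4, Clu, Jag1, Fzd2, Sec61a1, Tagln, Scx, Ebf1 and Hba-a1.

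BMP2 is a secreted growth factor of the TGF-beta family. It binds paired receptors that activate Smad1, Smad5 and Smad9, and these switch on early genes such as Id1 and Smad6 and drive mesenchymal cells towards cartilage and bone. VEGFR1, the product of Flt1, binds VEGF tightly, and its soluble form holds VEGF away from the signalling receptor Kdr. VEGF draws in the vessels that accompany the replacement of cartilage by bone. Whether cells given bone-inducing BMP2 and cells given VEGFR1 differ in bone and cartilage genes is the question that these arrays address.

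The BMP2 and VEGFR1 arrays resembled each other across most genes. Of 20889 genes, 42.8% lay within 10 points of each other and 62.6% within 20 points, with a median difference of -0.06 and a median size of 13.1 points. Large differences were found for 1115 genes scored higher with BMP2 (5.34%) and 1322 scored lower (6.33%), together 11.7%. With each array centred on its median the counts were 1241 higher and 1193 lower, so the larger side changed. Over these genes the median score was -21.8 with BMP2 and -19.4 with VEGFR1. The array medians used for median-centring differed by -2.62 points, so centring raised every difference by 2.62 points. It moved the median over all probe sets used from -0.18 to 2.44 points. Their share higher with BMP2 moved from 48.7% to 57.8%. Centred values of the lists below are to be read against these moved values. The PBS array stood about as far from each: 11.6% of genes differed by at least 50 points between BMP2 and PBS and 10.6% between VEGFR1 and PBS, comparisons that share the PBS array. Replicate arrays of 1 bulk group differed more, with 17.6% to 41.3% of genes at least 50 points apart over 16 pairs (median 29.7%). Bulk arrays hold whole tissue, so this spread is a yardstick only, but no treated pair exceeded it.

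**Figure D1:**
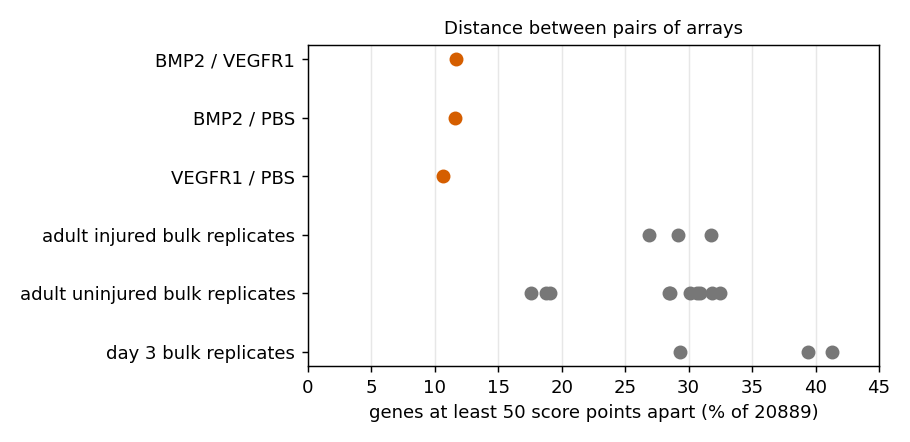
Each point is 1 pair of arrays, placed by the percentage of genes at least 50 score points apart (x axis); orange marks the 3 pairs of treated stem cell arrays and grey the replicate pairs of the 3 bulk groups. The treated pairs lie between 10.6% and 11.7%, below all 16 bulk pairs (17.6% to 41.3%).

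Probe sets of the same gene gave the internal check, and it was weak. For 1145 genes with a large difference and several probe sets, all probe sets pointed the same way in 42.2%, close to the 41.8% found over all 9744 genes with several probe sets. The 1974 other probe sets of these genes followed the direction in 55.9% of cases and by at least 50 points in 7.95%, with a median of 1.73 points towards it. Only 25 genes had every probe set at least 50 points higher with BMP2 (0.257%), and 30 had every probe set at least 50 points lower (0.308%). Large differences were also less frequent where signal is strong. Ranked by intensity in the 3 other microfractured stem cell arrays and split into 4 equal bins, 4.70% of genes in the top bin differed by 50 points, against 12.3% in the bottom bin. Of the 1115 genes scored higher, 451 had the BMP2 array alone 50 points beyond PBS, 321 had VEGFR1 alone that far on the other side, 29 had both and 314 neither. Of the 1322 scored lower, the counts were 487, 471, 28 and 336. Intensities below are means ± SD (n = 3).

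Among 15 bone matrix and mineral genes, 1 was scored at least 50 points higher with BMP2 and none at least 50 points lower. Over all genes the shares were 5.34% and 6.33%, so 1 gene of 15 is close to what all genes gave. The same shares apply to the counts of the lists below. Alpl, which encodes tissue-nonspecific alkaline phosphatase, the enzyme that frees phosphate for mineral, scored -7.56 with PBS, 66.2 with BMP2 and -13.0 with VEGFR1. The BMP2 array alone was high, by 79.2 points over VEGFR1, and the bulk SD of Alpl was 35.7. The gene has a single probe set, so no second reading was at hand, and its intensity in microfractured stem cells was 4548 ± 868. Ibsp, which encodes bone sialoprotein, a nucleator of mineral, scored -0.07, 59.3 and 39.5 in the same order. Both treated arrays stood above PBS, and BMP2 stood 19.8 points above VEGFR1 on this probe set and 11.7 on the other (bulk SD 12.6).

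The main proteins of bone did not separate the arrays. Col1a1, the chief collagen of bone, scored 80.9 with PBS, 82.2 with BMP2 and 84.7 with VEGFR1. Spp1, which encodes the matrix protein osteopontin, scored 70.6, 70.4 and 68.2. These scores differ by less than the bulk SDs of 10.4 and 11.9. Bglap, the osteocalcin gene, shares its probe sets with other genes and was not scored here. Over the list the median difference was 2.43 points, against -0.06 over all genes, and the SD of the list median between bulk replicates was 8.25.

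Cartilage matrix genes had no large difference. None of 21 was 50 points apart in either direction, 12 were higher and 9 lower with BMP2, and the median difference was 4.56 points (SD of the list median between bulk replicates 14.4). The median was 1.97 among genes above the median score of the table. Col2a1, the fibrillar collagen of cartilage, scored 94.7 with PBS, 94.4 with BMP2 and 95.2 with VEGFR1, near the upper bound in all 3. Snorc, a small cartilage proteoglycan, had the widest gap with BMP2 higher, scoring -95.0, -3.67 and -32.6. Acan, the large cartilage proteoglycan, scored 39.2, 49.6 and 29.9, with PBS between the treatments and a bulk SD of 26.0. Prg4, which encodes the joint lubricant of the cartilage surface, scored 93.6, 95.3 and 95.9.

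Some cartilage genes had several agreeing probe sets. Fmod, the collagen-binding proteoglycan fibromodulin, was higher with BMP2 on all 6 of its probe sets, by 10.2 to 26.0 points, with scores of 83.5 (PBS), 88.7 (BMP2) and 78.5 (VEGFR1) on its representative probe set. PBS lay between the treatments there, and the bulk SD was 5.30. Matn3, a cartilage matrix adaptor protein, went the other way on both of its probe sets, by -41.2 and -20.9 points. It scored 26.6 with PBS, -2.69 with BMP2 and 38.5 with VEGFR1, so that BMP2 was the low array. Differences were small for other agreeing genes, the cartilage collagen genes Col9a3 (1.97 to 6.23 points higher on 3 probe sets), Col11a1 (2.87 and 4.06 lower) and Col9a1 (6.50 and 1.5 lower, like Col11a1 on 2 probe sets). The gap between the 2 lists, bone minus cartilage, was -2.13 points, with an SD of 16.5 between bulk replicates. That spread comes from whole bone, whose replicates differed more than the treated arrays, so it is no replicate spread of stem cells.

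**Figure D2:**
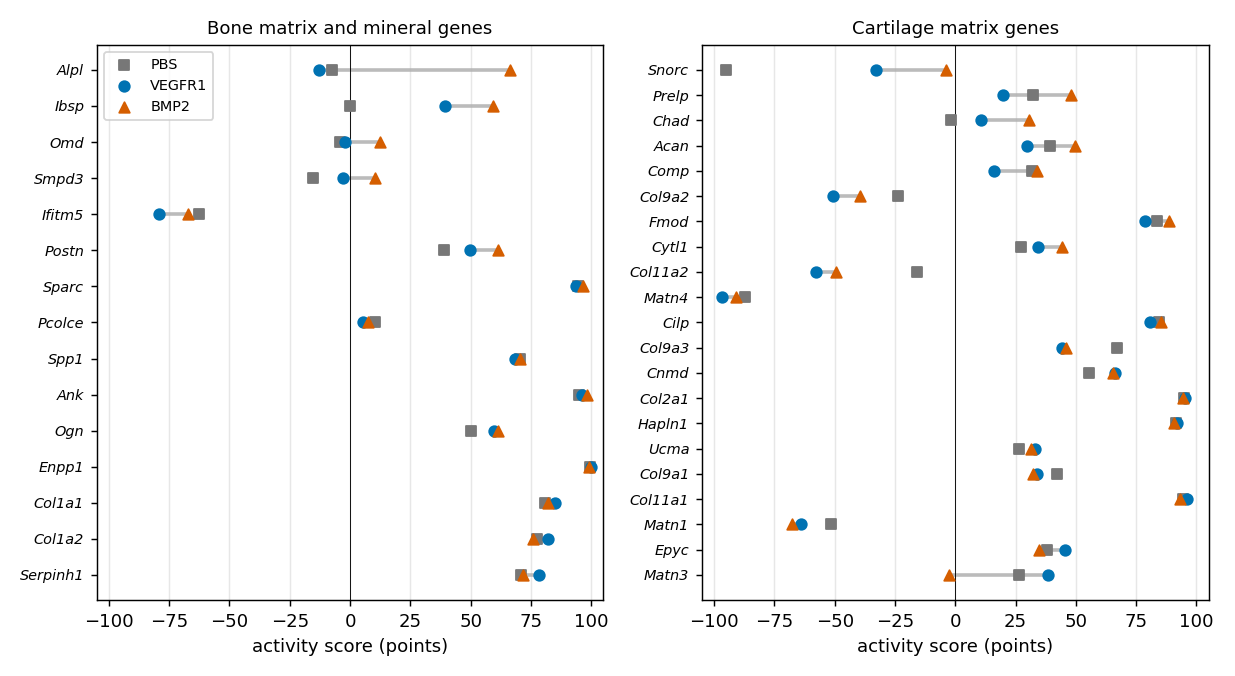
Activity scores (x axis, points) of bone matrix and mineral genes (left) and cartilage matrix genes (right), 1 row per gene ordered by BMP2 minus VEGFR1; grey squares are PBS, blue circles VEGFR1 and orange triangles BMP2, 1 array each, and the grey bar joins the 2 treatments. Alpl is the only row whose bar spans 50 points or more, and Matn3 has the longest bar with BMP2 below.

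Regulators of bone and cartilage showed a few wider gaps. Runx2, the factor that commits cells to bone, sat at the upper bound with 99.3 (PBS), 99.8 (BMP2) and 99.4 (VEGFR1). Sp7, which acts after Runx2 in osteoblasts and is also called osterix, scored -5.15, -0.12 and -48.8, so the VEGFR1 array was the low one. The difference of 48.7 points fell just short of 50, on 1 probe set, beside a bulk SD of 20.5. Sox9, the factor that starts cartilage, was lower with BMP2 on all 3 of its probe sets, by 14.6 to 78.9 points. On its representative probe set Sox9 scored -10.4, -9.43 and 5.21, and this difference of -14.6 points was smaller than the bulk SD of 32.5. Of 14 bone transcription factors none differed by 50 points, and of 10 cartilage factors Barx2 was 107 points higher and Scrg1 76.6 points lower with BMP2, each on 1 probe set. Barx2 had an intensity of only 17.6 ± 6.73, and Scrg1 one of 2712 ± 1169.

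Genes of hypertrophic cartilage, the stage that mineralizes and is invaded by vessels, included a few large differences. Of 12 such genes, 3 were at least 50 points higher with BMP2, among them Alpl, and none was 50 points lower. Over all genes 5.34% were that much higher and 6.33% that much lower. Ihh, the signal made by cells entering hypertrophy, scored -75.6 with PBS, -27.1 with BMP2 and -98.1 with VEGFR1, on 1 probe set. All of these Ihh scores are negative, and its intensity was 273 ± 172. Mef2c, a factor that drives hypertrophy, scored -11.1, 33.5 and -17.9, a difference of 51.4 points beside a bulk SD of 29.3. The BMP2 array was the high one, and all 5 probe sets of Mef2c were higher with BMP2 than with VEGFR1, by 16.2 to 51.4 points.

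The collagen that defines hypertrophy did not follow. Col10a1 scored 85.4 with PBS, 86.4 with BMP2 and 83.2 with VEGFR1. Pthlh, which encodes the signal that delays hypertrophy, was lower with BMP2 than with VEGFR1 on both probe sets, by 33.0 and 43.5 points. Its representative probe set scored -63.3 with PBS, -43.6 with BMP2 and -10.6 with VEGFR1. The other scored -73.45, -85.4 and -41.9, and VEGFR1 was the high array on both. Among 9 osteocyte genes, those of cells buried in bone, 7 were higher with BMP2 and Dmp1 was the only one past 50 points. Dmp1, a regulator of mineral, scored -30.4, 50.2 and -11.7 on its representative probe set, a difference of 61.9 points beside a bulk SD of 2.62 and an intensity of 2152 ± 898. Its other probe sets gave 34.9 and -2.88 points, so the readings did not all point one way.

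BMP target genes leaned towards the BMP2 array. Of 14 targets 12 were higher with BMP2 and 2 lower, with a median difference of 13.5 points (SD of the list median between bulk replicates 12.8). By probe set, 17 were higher and 4 lower, against 48.7% higher over all 38557 probe sets used. Median-centring or quantile normalization of the arrays kept this at 18 or 17 higher of 21. The shares over all probe sets were then 57.8% and 50.7%. Among targets in the upper part of the intensity range, above its median, the median difference was 5.21 points. Nog, which encodes the BMP-binding antagonist noggin and is itself induced by BMP, scored -40.4 with PBS, 62.9 with BMP2 and -8.64 with VEGFR1. The difference of 71.5 points was about the size of its bulk SD of 70.7, on 1 probe set of low intensity (95.6 ± 38.4). Grem1, another secreted BMP antagonist, scored -0.46, 56.5 and -0.06, a difference of 56.6 points beside a bulk SD of 29.1 and an intensity of 153 ± 36.1.

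The direct Smad targets differed less. Smad6, an inhibitor within the pathway, scored 5.77 with PBS, 13.4 with BMP2 and -27.6 with VEGFR1, where the VEGFR1 array was the low one. Id1, the classical early BMP target and an inhibitor of differentiation factors, scored 26.9, 38.4 and 25.3, and its difference of 13.1 points lay within the bulk SD of 20.97. Id2, of the same family, was higher with BMP2 than with VEGFR1 on all 3 probe sets, by 5.39 to 24.7 points. Its representative probe set scored 1.9 with PBS, 6.52 with BMP2 and -18.2 with VEGFR1, so the VEGFR1 array was the low one. Id3 scored 62.6, 49.2 and 48.6, with both treated arrays below PBS. Smad7, the other inhibitory Smad, scored 23.03, 44.6 and 39.4, with both treated arrays above PBS.

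**Figure D3:**
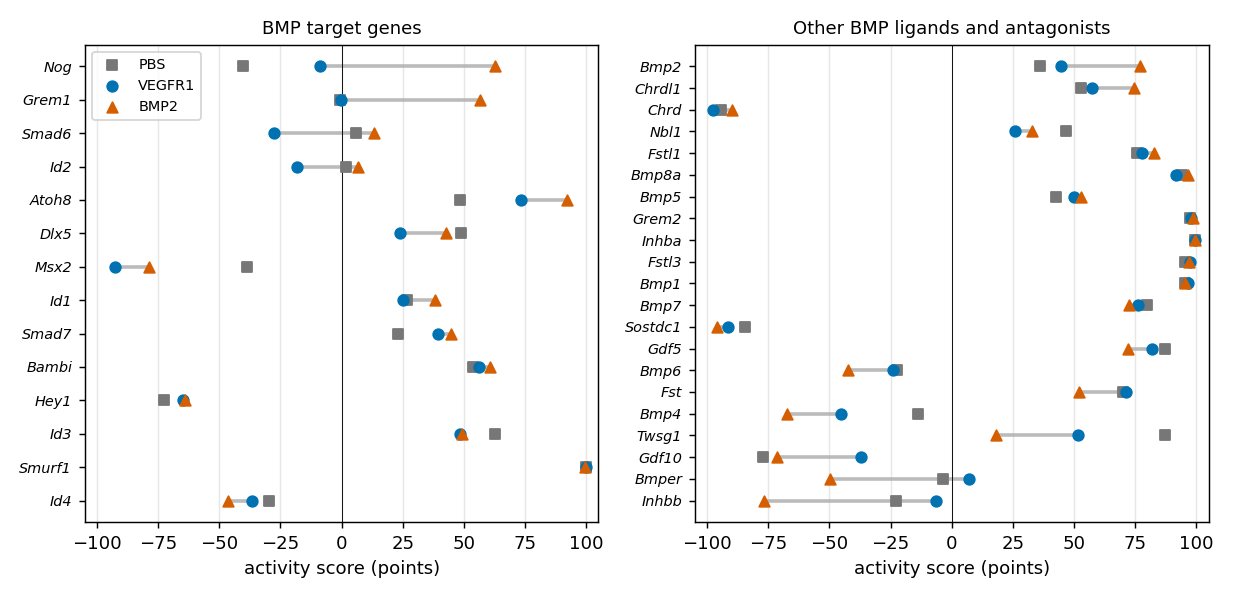
Activity scores (x axis, points) of BMP target genes (left) and of the other BMP ligands and antagonists (right), 1 row per gene ordered by BMP2 minus VEGFR1; grey squares are PBS, blue circles VEGFR1 and orange triangles BMP2, 1 array each. Triangles lie to the right of circles in 12 of 14 target genes, with the longest bars for Nog and Grem1.

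The Bmp2 gene itself scored 36.2 with PBS, 76.8 with BMP2 and 44.8 with VEGFR1. The BMP2 array was the high one, by 32.0 points over VEGFR1 on 1 probe set, beside a bulk SD of 15.96 and an intensity of 4952 ± 801. The list of 11 BMP and activin genes, which includes Bmp2 and the procollagen protease gene Bmp1, had 4 higher and 7 lower. Bmp5 was higher on all 3 probe sets, by 2.81 to 24.1 points, and Bmp8a by 4.69 points. Inhbb, an activin subunit, was 70.3 points lower on 1 probe set and 2.53 points higher on the other. Bmper, a secreted BMP modulator, scored -3.62, -49.8 and 7.18 and was 56.9 points lower with BMP2, the opposite of Nog and Grem1. Twsg1, another such modulator, scored 87.1, 17.97 and 51.4 and was lower with BMP2 on all 4 probe sets, by 0.94 to 33.5 points, an agreement lost on median-centring. Receptors and Smads stayed closer, with none of 11 past 50 points on its representative probe set. On another probe set Bmpr1a was 73.2 points higher with BMP2, with a median of 6.93 points over its 6 probe sets. Acvr2a was lower on both of its probe sets, by 15.6 and 56.3 points.

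The starts of genes from these groups were read from RefSeq (GRCm38.p6), each window running from 250 bases before a gene's start to 50 after it. Of 8 genes looked up 5 had an entry (Alpl, Dmp1, Grem1, Igfbp5 and Cxcl1), and Nog, Sp7 and Mmp9 are named only. The windows of Alpl and Grem1 are shown because for these bone and BMP genes the BMP2 array alone was high. Capitals mark GGCGCC, the BMP Smad element, searched on both strands, which 11.9% of all 32851 windows hold. The Alpl window lies at chr4:137796335-137796634 on the minus strand, the first of 2 listed starts, and the Grem1 window at chr2:113758599-113758898 on the minus strand.
Alpl: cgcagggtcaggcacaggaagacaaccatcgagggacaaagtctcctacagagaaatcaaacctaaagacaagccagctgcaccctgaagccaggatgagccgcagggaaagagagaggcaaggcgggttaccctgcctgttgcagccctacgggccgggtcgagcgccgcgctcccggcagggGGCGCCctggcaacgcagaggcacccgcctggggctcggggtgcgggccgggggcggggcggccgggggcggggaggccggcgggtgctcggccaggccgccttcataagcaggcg
Grem1: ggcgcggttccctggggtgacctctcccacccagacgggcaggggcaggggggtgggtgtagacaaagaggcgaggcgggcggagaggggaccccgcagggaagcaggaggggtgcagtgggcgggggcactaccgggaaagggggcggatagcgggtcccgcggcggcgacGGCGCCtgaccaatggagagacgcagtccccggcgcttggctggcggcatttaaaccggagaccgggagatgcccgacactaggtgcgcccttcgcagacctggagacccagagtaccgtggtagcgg
Each window shown held 1 match, whereas the second window of Alpl held none. A palindromic Smad box, GTCTAGAC, was found in neither printed window and occurs in 0.213% of windows. The window of Igfbp5 is not printed and held no match to these motifs or to the Runx and NF-kB motifs described below. The second window of Dmp1, at chr5:104202367-104202666 on the plus strand, is shown because Dmp1 was the osteocyte gene with the largest difference. Capitals mark its match to the Runx site TGTGGT, here on the reverse strand, which 16.8% of windows hold. The first window of Dmp1 held no match to the Runx site or the Smad motifs, so the window shown is the matching one.
Dmp1: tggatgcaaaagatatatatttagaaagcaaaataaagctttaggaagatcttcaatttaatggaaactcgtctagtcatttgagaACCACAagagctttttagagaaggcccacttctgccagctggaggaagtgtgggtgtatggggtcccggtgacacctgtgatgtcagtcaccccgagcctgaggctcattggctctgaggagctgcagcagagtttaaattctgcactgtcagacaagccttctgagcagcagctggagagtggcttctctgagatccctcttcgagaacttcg
These matches describe letters only, and no binding was measured.

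VEGF pathway genes were mostly alike on the arrays. Of 10 genes 1 was at least 50 points lower with BMP2 and none higher, with a median difference of -3.24 points (SD of the list median between bulk replicates 12.3). After median-centring this was -0.62, beside 2.44 over all probe sets. Among genes above the median score of the table the list median turned to 7.78. Vegfa, the main ligand, scored 61.2 with PBS, 70.4 with BMP2 and 62.6 with VEGFR1, within its bulk SD of 24.6, and 99.8, 99.7 and 99.9 on its other probe set. Flt1, the gene of the receptor that was given, scored -91.3, -81.1 and -98.8, and its 4 probe sets disagreed in direction. Kdr, the signalling VEGF receptor of endothelium, scored -75.6, -95.6 and -43.0, a difference of -52.6 points beside a bulk SD of 35.4. All of its scores are negative, and its intensity was 125 ± 76.6. Among other vessel-related signals none of 12 was past 50 points on its representative probe set. Angptl2 was 159 points lower with BMP2 on 1 of its 4 probe sets and 1.33 to 10.4 points higher on the other 3. Angpt2, which loosens vessels, was lower with BMP2 on both probe sets, by 16.8 and 38.6 points, at a low intensity (87.7 ± 26.8).

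TGF-beta pathway genes leaned towards the VEGFR1 array. Of 15 genes 13 were lower with BMP2, with a median of -11.0 points (SD of the list median between bulk replicates 18.5), and 2 were past 50 points. Smad2, a transducer of TGF-beta, scored -3.02 with PBS, -20.0 with BMP2 and 58.4 with VEGFR1, so the VEGFR1 array was the high one. Its second probe set pointed the same way by -26.9 points, beside a bulk SD of 68.6. Ski, a repressor of Smads, was 67.0 points lower on 1 probe set and 9.47 points higher on the other. Tgfbr3, the co-receptor betaglycan, and the ligand Tgfb1 were lower with BMP2 on both of their probe sets, by 34.02 and 37.9 points and by 31.3 and 24.04 points. The other ligands pointed the other way, with Tgfb2 higher on all 4 probe sets, by 5.46 to 15.3 points, and Tgfb3 5.27 points higher. The list median was -6.05 on the median over probe sets or without probe sets ending in _s_at or _x_at. By probe set the lean was weaker, with 14 of 37 higher and 23 lower, against 48.7% higher over all probe sets. After median-centring the counts were 17 and 20, against 57.8% higher over all probe sets.

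Hedgehog genes split. Ihh and Gli1, a target and transducer of hedgehog, were higher with BMP2, and Gli1 scored -67.8 with PBS, -18.3 with BMP2 and -77.0 with VEGFR1. The high array was BMP2, on 1 probe set with intensity 276 ± 97.9. Another target, Ptch1, was 27.6 points lower on its representative probe set and up to 85.5 points higher on another. Hhip, a decoy that binds hedgehog and is also its target, was lower with BMP2 on all 4 probe sets, by 6.00 to 73.1 points. Sufu, which holds Gli proteins back, scored 92.9, -13.1 and 78.8, a difference of -91.9 points, but its 3 probe sets disagreed and their median difference was -0.09 (intensity 191 ± 66.0).

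Wnt and IGF genes showed further single differences. Fzd7, a Wnt receptor, scored 33.4 with PBS, 75.3 with BMP2 and 4.56 with VEGFR1, with 0.95 points between treatments on its other probe set (bulk SD 56.5, intensity 353 ± 73.3). Tcf4, which here is the transcription factor E2-2 and not Tcf7l2, was 74.1 points lower, while its 7 probe sets had a median of 6.04 points. Of 11 secreted Wnt inhibitors 7 were higher with BMP2 and 4 lower, with a median of 5.17 points. Frzb and Sfrp2, of the Sfrp family, were 47.5 and 38.6 points higher, Frzb with -3.46 points on its other probe set. Sfrp1 and Dkk2 were 66.1 and 53.1 points lower, Sfrp1 with a median of 0.86 points over 5 probe sets and Dkk2 with an intensity of only 64.8 ± 51.9. Dkk3 was lower on both probe sets, by 26.2 and 52.1 points. Igfbp5, which binds IGFs and is abundant in bone, scored 36.5, 3.21 and 49.3, with BMP2 the low array on this probe set and, by 69.0 points, on its other one. Its bulk SD was 8.96 and its intensity was high at 11281 ± 6100. The IGF2 receptor gene Igf2r, higher by 53.5 points, reversed on the median of its probe sets (-21.5 points).

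Matrix-degrading enzymes leaned towards the VEGFR1 array. Over 18 protease and inhibitor genes, 10 probe sets were higher with BMP2 and 35 lower. The split was 15 and 31 after median-centring and 10 and 35 after quantile normalization. Over all probe sets the shares higher were 48.7%, 57.8% and 50.7% in the same order. The median over genes was -5.04 points (SD of the list median between bulk replicates 17.97), -8.96 on the median over probe sets and -2.42 after median-centring. Of 14 members with several probe sets, 7 had all of them lower with BMP2 and 0 had all higher, and these counts were 6 and 2 after median-centring. Among all genes with several probe sets, 41.8% had all of them on the same side, higher or lower. Mmp9, the gelatinase that osteoclasts and invading cells use, scored -10.6 with PBS, -45.4 with BMP2 and 24.9 with VEGFR1. PBS lay between the treatments there, and on the other probe set, with scores of -98.4, -94.7 and -7.96, VEGFR1 was the high array by 86.7 points (bulk SD 24.5, intensity 1036 ± 716). Mmp9 also belongs to the osteoclast marker list.

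The remaining proteases differed less. Htra1, a serine protease of cartilage and bone matrix, scored 68.5 with PBS, 40.03 with BMP2 and 64.0 with VEGFR1, and both of its probe sets were lower with BMP2, by 23.9 and 22.2 points (bulk SD 20.4). Adamts5 and Adamts4, which cut aggrecan, were lower on all of their 4 and 2 probe sets, by 4.39 to 12.4 and 7.60 to 18.3 points. Mmp13, the collagenase of hypertrophic cartilage, scored 32.7, 45.5 and 54.6, with both treated arrays above PBS and 9.09 points between them. Among 24 genes of fibrous matrix none was 50 points apart, and the median was -1.26 points. After median-centring it was 1.36, below the 2.44 over all probe sets.

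**Figure D4:**
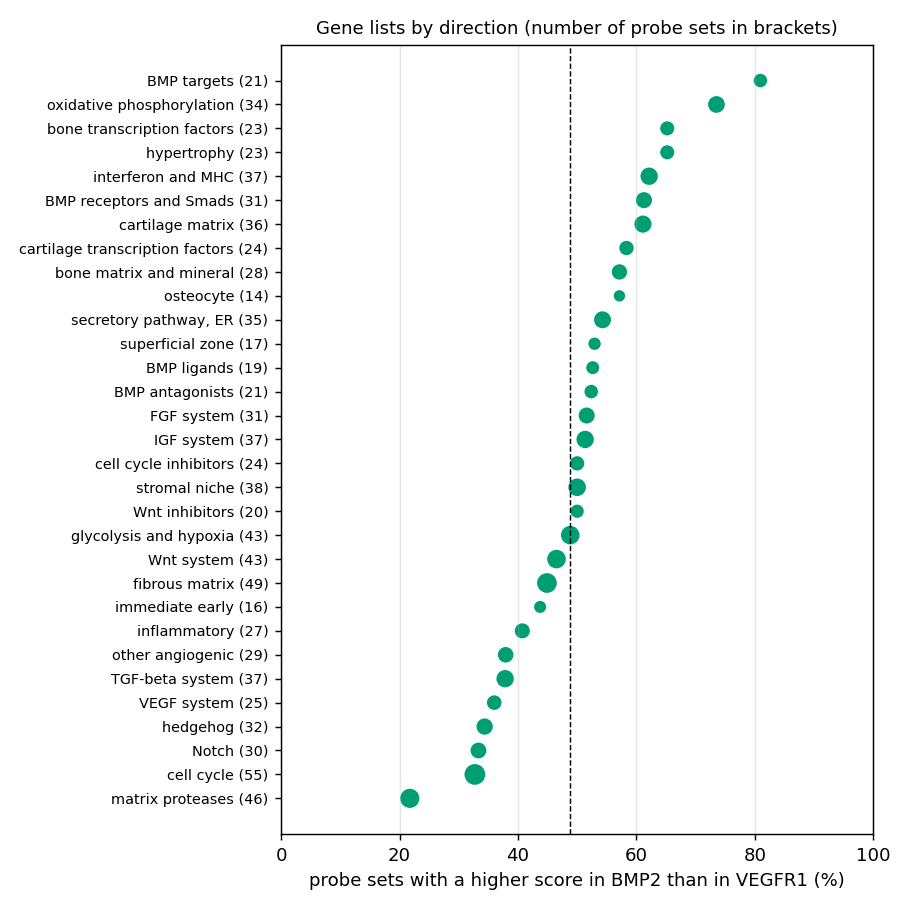
Percentage of probe sets scored higher with BMP2 than with VEGFR1 (x axis) for each gene list other than cell and gate markers, with point area proportional to the number of probe sets, given in brackets; the dashed line is the 48.7% found over all probe sets. BMP targets (17 of 21 higher) lie at the top and matrix proteases (10 of 46 higher) at the bottom; with median-centred arrays the line moves to 57.8% and the cell cycle list, low here, has 29 of 55 probe sets higher.

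Genes of mitochondrial respiration leaned towards the BMP2 array, by less than the bulk spread of their median. Of 15 oxidative phosphorylation genes 11 were higher, with a median difference of 17.7 points (SD of the list median between bulk replicates 24.1), and 25 of 34 probe sets were higher. Cycs, which encodes cytochrome c, scored -94.9 with PBS, -2.12 with BMP2 and -81.1 with VEGFR1, and all 4 of its probe sets were higher with BMP2, by 13.03 to 79.0 points. Sdhb and Sdha, subunits of succinate dehydrogenase, differed by 39.2 and 36.9 points, though the 4 probe sets of Sdha did not all agree. The 16 genes of glycolysis and hypoxia had 6 members higher and 10 lower, with a median of -1.51 points. After median-centring this median was 1.11, below the 2.44 over all probe sets. Cell cycle genes lay close together, with none of 22 past 50 points and a median of -2.77 points. Their centred median was -0.14, beside 2.44 over all probe sets. Trp53, the p53 gene, was 59.4 points higher on its representative probe set and -2.50 points on the median of 7 probe sets.

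Inflammatory genes differed at a few members. Cxcl1, a chemokine that draws neutrophils, was lower with BMP2 on all 3 probe sets. Its representative probe set scored -0.97 with PBS, -6.74 with BMP2 and 24.3 with VEGFR1, and the others gave -55.3 and -84.9 points. VEGFR1 was the high array on the representative probe set, whereas on the others BMP2 was the low one, with scores of -13.7 (PBS), -84.9 (BMP2) and 0 (VEGFR1) and of -23.3, -64.2 and -8.98. The bulk SD was 20.96 and the intensity 6433 ± 3199. Il6, an inflammatory cytokine, scored -11.8, -66.5 and -5.13, a difference of -61.4 points on 1 probe set of low intensity (72.9 ± 10.3). Over 14 inflammatory genes the median was -0.44 points, and 2.18 after median-centring, beside 2.44 over all probe sets. The start of Cxcl1, at chr5:90890995-90891294 on the plus strand, is shown because all of its probe sets pointed one way and it held a match. Both probe sets of Igfbp5 also pointed one way, but its window held no match and is not printed. Every window printed here holds a match, so the printed windows are a selection. Capitals mark overlapping matches on both strands to the NF-kB motif (GGGA and TTCC with any 2 bases between), which 1.47% of windows hold.
Cxcl1: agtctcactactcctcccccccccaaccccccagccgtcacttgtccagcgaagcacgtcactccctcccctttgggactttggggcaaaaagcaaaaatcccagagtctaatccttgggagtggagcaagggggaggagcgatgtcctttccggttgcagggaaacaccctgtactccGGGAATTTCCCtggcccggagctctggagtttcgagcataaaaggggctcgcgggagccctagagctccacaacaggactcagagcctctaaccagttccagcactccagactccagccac

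Genes of the sort gate gave mixed readings. Itgav, the integrin selected for, scored 92.3 with PBS, -1.92 with BMP2 and 77.5 with VEGFR1 on its representative probe set. Its 5 probe sets disagreed, with a median difference of -1.35, and the probe set of highest score read 97.0, 97.1 and 98.4. Eng, the CD105 gene selected against, scored -56.3, -18.8 and -92.1 and was higher with BMP2 on all 3 probe sets, by 2.17 to 73.3 points. The other genes selected against, Ptprc (CD45), Tek (TIE2), Thy1 and Enpep (6C3), had negative scores on all 3 arrays, and none differed by 50 points. Between the treatments they differed by -14.4, 11.4, -0.86 and -29.0 points.

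Myeloid and endothelial markers lay low in the range of the score on both treated arrays. Scores above 0 were found for 0 of 17 myeloid and 0 of 12 endothelial genes on the BMP2 array and likewise on the VEGFR1 array. The myeloid scores ran from -98.9 to -9.64 over the 3 arrays and the endothelial from -99.9 to -19.0, with medians of -74.2 (BMP2) and -80.8 (VEGFR1) for myeloid genes and -85.3 and -95.1 for endothelial ones. Single members still differed: Mpo, a neutrophil enzyme, was 57.6 points and Tie1, an endothelial receptor, 54.3 points higher with BMP2. Cdh5, the cadherin of endothelial junctions, was 68.0 points lower with BMP2 on 1 probe set and 0.97 points higher on the other. Of 10 osteoclast genes 3 had scores above 0 on each treated array, and Calcr, the calcitonin receptor, was 54.7 points lower while Oscar was higher on both probe sets, by 53.4 and 63.9 points. Intensities were 448 ± 633 for Mpo, 36.6 ± 30.6 for Tie1, 82.8 ± 27.3 for Cdh5, 54.97 ± 24.6 for Calcr and 83.4 ± 3.65 for Oscar. Over the myeloid list they ran from 62.2 (Adgre1) to 5130 (Camp), so a low score was not always a weak signal. Lyz2 scored -59.8 with BMP2 and -73.2 with VEGFR1, and its intensity in the other microfractured stem cell arrays was 4996 ± 3167. Other marker lists held high scores on both arrays, such as those of the mural gene Tagln (94.0 with BMP2 and 93.9 with VEGFR1), the tendon factor Scx (96.5 and 97.8) and the B cell and stromal factor Ebf1 (99.3 and 99.5). The part of such cells in any difference given here was not tested. In RNA of a sorted population, fewer cells of a kind and less RNA per cell cannot be told apart.

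Further lists held single large differences. Jund, an AP-1 subunit, scored 87.0 with PBS, 29.1 with BMP2 and 88.0 with VEGFR1, with BMP2 the low array by 58.9 points and by 5.90 on its other probe set (bulk SD 12.7, intensity 318 ± 149). Sec61b, a subunit of the protein export channel, was 126 points lower on 1 probe set and 34.9 points higher on the other. H2-D1, a class I antigen-presenting molecule, was 62.8 points lower while its 9 probe sets disagreed, with a median of -10.2. Dntt, a lymphocyte enzyme, was 71.1 points lower on 1 probe set and 15.1 points higher on another, and Acta1, the muscle actin, was 53.9 points lower. The intensities of Dntt and Acta1 were only 11.6 ± 5.11 and 4.01 ± 1.36. Hba-a1, a globin of red cells, scored -48.3, 17.8 and 21.3, above PBS on both treated arrays and 3.57 points apart between them.

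Stromal and mural genes included some differences whose direction was shared by all probe sets of a gene. Rgs5, a regulator of G protein signals that marks pericytes, scored 37.0 with PBS, -67.0 with BMP2 and 27.9 with VEGFR1, a difference of -94.8 points beside a bulk SD of 5.51. The BMP2 array was the low one, and all 4 probe sets were lower, by 3.91 to 94.8 points (intensity 1713 ± 869). Of 8 mural genes 4 of the 6 with several probe sets were lower on all of them, and none was higher on all, against 4 and 2 after median-centring. Over all genes with several probe sets, all pointed the same way, up or down, in 41.8%. Vcam1, an adhesion molecule of marrow stroma, was lower with BMP2 on all 4 probe sets, by 19.9 to 106 points, and Lepr, the leptin receptor of the same stroma, higher on all 4, by 8.77 to 112 points. Ebf3, a stromal transcription factor, scored 50.4, -31.5 and 23.96, but its other probe sets included 1 at 8.77 points higher with BMP2.

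Across all lists, 161 genes had at least 3 probe sets, and in 49 of them (30.4%) all pointed one way, against 25.9% over all 4449 genes with as many. With BMP2 22 were higher and 27 lower. Median-centring kept all probe sets in that direction for 22 and 21 of them, and quantile normalization for 21 and 23. Those whose smallest difference was still over 10 points included Atf4, a stress and osteoblast factor (18.4 to 54.9 points higher), Clu, the chaperone clusterin (15.2 to 33.0 higher), Jag1, a Notch ligand (15.05 to 36.6 lower), Fzd2, a Wnt receptor (20.1 to 34.4 lower), and Sec61a1, of the protein export channel (11.5 to 43.0 lower on 6 probe sets).

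**Figure D5:**
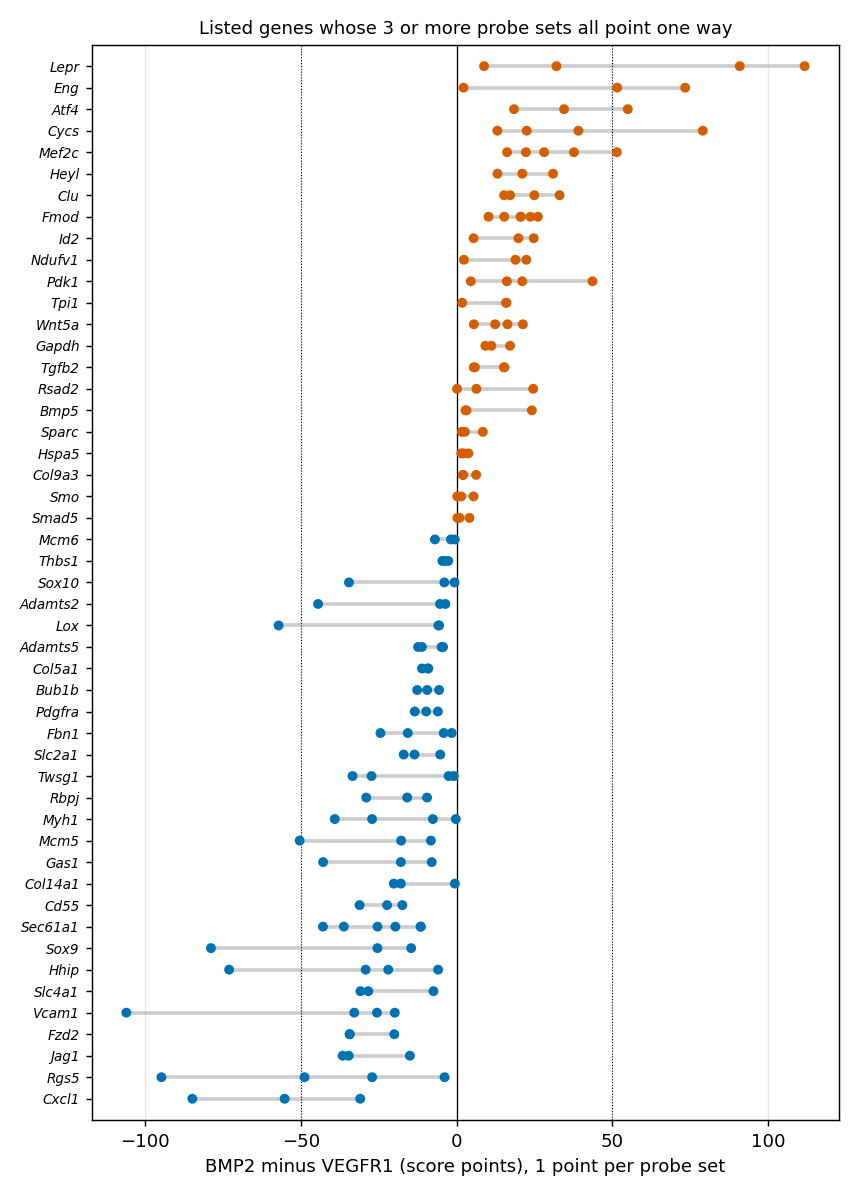
BMP2 minus VEGFR1 in score points (x axis) for each probe set of the 49 listed genes whose 3 or more probe sets all pointed one way, 1 row per gene ordered by the median; orange points are higher and blue points lower with BMP2, and dotted lines mark 50 points. Cxcl1, Rgs5, Jag1 and Fzd2 form the low end and Lepr, Eng, Atf4 and Cycs the high end.

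Some genes, most of them in no list, had every probe set at least 50 points apart. The largest such differences with BMP2 higher were those of Rad9b, a DNA damage checkpoint gene (166 and 62.4 points on its 2 probe sets), Pla2g4c, a phospholipase (152 and 70.5), Slc12a1, a kidney salt transporter (145 and 53.9), Recql5, a DNA helicase (144 and 73.4), and P2rx6, an ATP-gated channel (130 and 66.2). The intensities of these 5 genes lay between 62.9 and 197. Cyp21a1, Fam135b, Pou3f4, Acot2 and Ndnf completed the 10 highest. Among the 10 lowest were Trim60 (-74.3 and -61.8 points), Rps6ka6, a kinase (-67.2 and -59.4), and Mmp9, together with 4930507D05Rik, 3110021A11Rik, Gpatch2l, Nfatc2ip, Cacnb2 and Prpf4. Mmp9 had the highest intensity of the genes named here from both ends.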

How the data were processed

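Gene expression was measured on Affymetrix arrays, and MAS5 is named, without a version, in the submitters' processing notes. For bulk tissue and the treated stem cells the authors deposited an activity score for each of 45101 probe sets, with no formula or genome build in the sources used here. For 10 stem cell arrays in replicated groups the deposited unit was MAS5 intensity on a linear scale, given by the authors for 18052 genes, matched to current symbols for 17994 (GRCm38.p6). The column of the VEGFR1 array was checked against the per-sample table, and 0 of 631414 values differed.

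Of the probe sets, 38557 carried 1 symbol and were used, 860 carried several and 5684 none. Differences, medians and counts were computed with pandas 2.3.3 and numpy 2.4.6 in Python 3.11.15. No test was made, since each treatment had 1 array, and the number of arrays limits the precision. The genes and the 42 lists (519 genes, 508 scored) were chosen with earlier results of these data known. Named genes were the 10 highest and 10 lowest with 2 or more probe sets all 50 points apart, up to 6 listed members past 50 points, a fixed set of bone, cartilage, BMP, VEGF and gate genes, and listed genes whose probe sets disagreed. Some were left out for length, and 1 is not reported here. Counting was tested on simulated data with planted differences. Alternatives were the choice of probe set, scaling, a filter on low scores and thresholds of 30 and 75 points.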

Additional observations from a re-analysis of the deposited data

How the results depend on the processing

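No paired analysis was possible because the treated groups hold 1 array each and share no replicate numbers. Counts followed the threshold: 2484 genes were higher and 2778 lower with BMP2 at 30 points, and 419 and 519 at 75 points. Restricting to genes above the median intensity in the other microfractured stem cells, an alternative added after seeing the data, left 269 and 366 among fewer genes. Under the choice of probe set, the scaling and the filter the counts ran from 782 to 1241 higher and from 883 to 1326 lower. The bone minus cartilage gap ran from -3.60 to 0.37 points, positive only with the filter on low scores. The median share of genes 50 points apart between bulk replicates ran from 28.8% to 30.5% when each array was left out in turn. Of 57 named genes past 50 points, 39 stayed past it on the median of their probe sets, 48 with the probe set highest in the treated arrays, 55 without probe sets ending in _s_at or _x_at, 56 after median-centring and 57 after quantile normalization. Direction reversed on the median of probe sets for Igf2r (-21.46), Sfrp1 (0.86), Tcf4 (6.04) and Trp53 (-2.50). It reversed with the probe set highest in the treated arrays for Dntt (15.07), Sec61b (34.93), Tcf4 (6.04) and Trp53 (-0.80), and without those probe set endings for Dmp1 (-2.88) and Ebf3 (8.77). The cause was not tested. With 1 array for each treatment, no setting gives an error for any single difference.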

Other observations

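The wider respiratory chain, chosen by gene name after the oxidative phosphorylation values were seen, was read subunit by subunit. Of 83 such genes 60 were higher with BMP2 than with VEGFR1 and 23 lower, with a median difference of 6.80 points, and 124 of 168 probe sets were higher and 44 lower. Over all genes 49.4% were higher. The set holds 14 genes of the oxidative phosphorylation list that prompted it; without them 50 of 69 genes were higher and 19 lower, with a median of 5.96 points. Complex I, which takes electrons from NADH, had 31 of 38 genes higher with a median of 10.5 points. All 4 genes of complex II, succinate dehydrogenase, were higher, with a median of 30.03 points. ATP synthase had 10 of 16 higher, with a median of 3.32 points. Only 3 of the 83 genes were at least 50 points higher and 1 was at least 50 points lower. Set beside the shared PBS array, the median over the 83 genes was -0.84 points for BMP2 and -6.86 points for VEGFR1.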
